A study of Mus musculus with 2 samples.

Results

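Transcripts of 9 complement genes were followed in mouse lung fibroblastic cells: the proteases C1ra and C1s1, the convertase components C2, C4b, C3 and Cfb, the pore component C7, and the regulators Serping1 and Cd55. They were picked by name as members of the cascade, with no threshold on their values, and all 9 were found among the 21014 genes of both deposited tables. The cells came from lungs of C57Bl/6J mice and formed 1 library from animals given a high fat diet (HFD) for 16 weeks and 1 library from animals given normal chow (NC) for 16 weeks. How many animals went into each library, and their age and sex, are not given in the sources used here. A cell was used if it had 500 or more detected genes and its mitochondrial counts did not pass 10%, which left 6089 of 6971 cells in HFD and 8140 of 9015 in NC. The deposited annotation places each cell in 1 of 5 classes, 3 named for a gene (Asc1, Gas6 and Pi16), the myofibroblasts and a class labelled pericytes. Because there was 1 library per diet, no test was possible, and every interval below is a 95% interval of counting error only.

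Complement is a cascade of proteases and opsonins found in plasma and tissue fluid. In the classical route, C1q bound to antibody activates the proteases C1r and C1s, which cleave C4 and C2 into a convertase that cleaves C3. In the alternative route, C3 itself joins with factor B to form a further C3 convertase, and fragments of C3 coat surfaces and recruit leukocytes. The late components, C7 among them, assemble a pore in target membranes, while inhibitors in plasma and on cell surfaces limit each step. The liver makes most plasma complement, and fibroblasts of many tissues are known to transcribe several of these genes.

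Levels are given as CPM, the count of a gene scaled to a common total (counts per 1e6), summed over the cells of a library or class, so that depth per library is divided out. How counts relate to molecules is not known for each gene, so a gene is compared between classes and diets and not with other genes. Median depth was 10045 counts per HFD cell and 7524 counts per NC cell. The pooled fibroblasts, which leave out the class labelled pericytes, held 5493 cells with 57794406 counts in HFD and 7890 cells with 65530663 counts in NC. The libraries shared 17 cell barcodes.

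The annotation was set beside marker genes. The summed level of 8 adventitial markers, Pi16 and Dpp4 among them, was 10858 CPM in HFD and 11699 CPM in NC Pi16 fibroblasts, and 799 CPM in HFD and 1107 CPM in NC Asc1 fibroblasts. The summed level of 7 alveolar fibroblast markers was 12003 CPM in HFD and 9838 CPM in NC Asc1 fibroblasts, and 3418 CPM in HFD and 2821 CPM in NC Pi16 fibroblasts. The single Gas6 marker did not set its class apart, with 250.3 CPM in HFD and 309 CPM in NC Gas6 fibroblasts and 279 CPM in HFD and 277 CPM in NC Pi16 fibroblasts. The class labelled pericytes held 18281 CPM in HFD and 17774 CPM in NC of 5 smooth muscle genes, beside 803 CPM in HFD and 581 CPM in NC of 8 pericyte markers, so it is called by its label only. Ptprc, Pecam1, Epcam and Msln, which define leukocytes, endothelium, epithelium and mesothelium, had no count in the pooled fibroblasts of either library. Other genes of those cells had some: the epithelial list summed to 33.9 CPM in HFD and 24.6 CPM in NC, mostly Scgb1a1 at 31.2 CPM in HFD and 21.9 CPM in NC, and the mesothelial list to 4.14 CPM in HFD and 4.30 CPM in NC. The endothelial list summed to 0.709 CPM in HFD and 1.39 CPM in NC. Whether cells were selected on Ptprc, Pecam1, Epcam or Msln is not known here, so their zeros are no check of purity.

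Most complement transcripts were highest in Pi16 fibroblasts, lower in Gas6 fibroblasts, lower again in Asc1 fibroblasts and low in myofibroblasts and the class labelled pericytes. Pi16 fibroblasts were the highest class in both libraries for 7 of the 9 genes, C1ra, C1s1, C3, C4b, Cfb, Serping1 and Cd55. C7 was highest in Gas6 fibroblasts in both libraries, and C2 was highest in Pi16 fibroblasts in HFD and in Gas6 fibroblasts in NC. For C2 the counting intervals of Pi16 and Gas6 fibroblasts overlapped in both libraries. In pooled fibroblasts 8 of the 9 genes were lower in HFD than in NC, against 46.3% of all measured genes, by amounts between C7 at a ratio of 0.941 and C2 at 0.666, while Cd55 stood at 1.009. Classes were made from the same cells and genes, so the order of classes is a description.

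**Figure D1:**
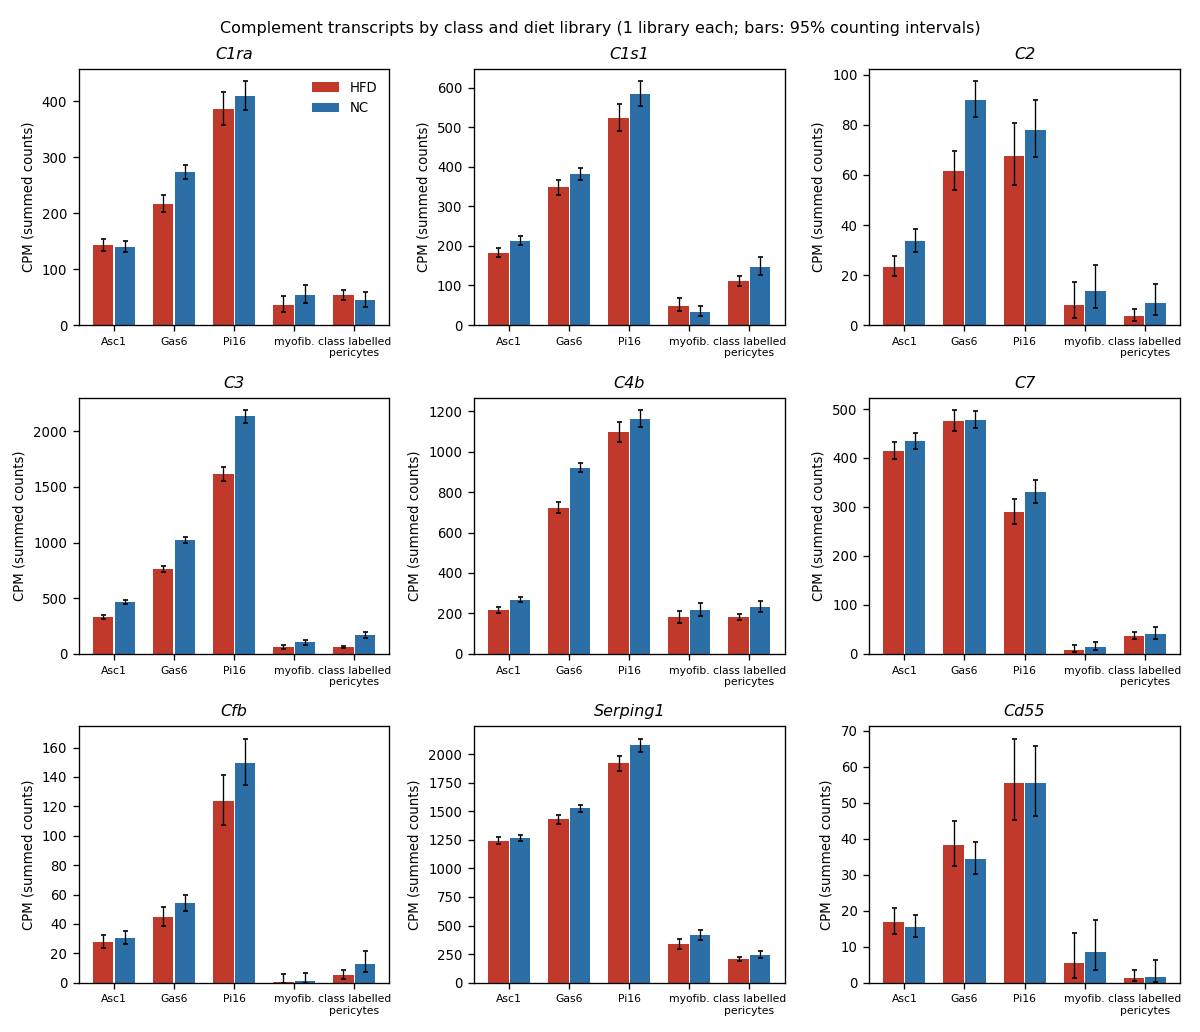
Each panel plots the CPM of 1 complement gene (vertical axis, from 0, own scale per panel) in the 5 annotated classes, with the HFD library left of the NC library and 95% counting intervals on the bars. Pi16 fibroblasts have the tallest bars for C3, at 1615 CPM in HFD and 2133 CPM in NC, while C7 is tallest in Gas6 fibroblasts, at 476 CPM in HFD and 478 CPM in NC.

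C3 (ENSMUSG00000024164), the component on which the activation routes converge, was measured at 648 CPM in HFD pooled fibroblasts and 918 CPM in NC pooled fibroblasts. The HFD over NC ratio was 0.705 (0.686 to 0.725), and 6.43% of the 13406 genes measured in these cells had a ratio as low or lower. A gene counted as measured when its counts, divided by the factor by which counts spread wider than single molecules would, reached 50 over both libraries.

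The 250 bases before the annotated start of C3 are shown with those of C1ra, C1s1 and C7 because C3 was lower in HFD in every class, C7 had a class pattern of its own, and C1ra and C1s1 are neighbours whose products work as partners. The sequences are RefSeq's on build GRCm38.p6 and run 5′ to 3′ on the gene's strand, from chr17:57228137-57228386 on the minus strand for C3, chr6:124512371-124512620 on the plus strand for C1ra, chr6:124542360-124542609 on the minus strand for C1s1 (the first of its 2 windows) and chr15:5063774-5064023 on the minus strand for C7. Capitals mark letters that match a searched motif.
C3: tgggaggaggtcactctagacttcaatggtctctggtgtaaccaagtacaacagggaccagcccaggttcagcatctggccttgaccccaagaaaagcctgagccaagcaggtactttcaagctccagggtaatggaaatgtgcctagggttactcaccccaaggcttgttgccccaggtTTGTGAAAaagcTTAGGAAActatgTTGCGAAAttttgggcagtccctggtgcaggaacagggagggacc
C1ra: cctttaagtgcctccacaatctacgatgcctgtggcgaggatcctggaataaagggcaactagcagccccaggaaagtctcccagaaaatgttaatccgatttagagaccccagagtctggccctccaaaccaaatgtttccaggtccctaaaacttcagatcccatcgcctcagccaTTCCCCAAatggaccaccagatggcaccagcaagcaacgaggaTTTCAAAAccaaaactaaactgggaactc
C1s1: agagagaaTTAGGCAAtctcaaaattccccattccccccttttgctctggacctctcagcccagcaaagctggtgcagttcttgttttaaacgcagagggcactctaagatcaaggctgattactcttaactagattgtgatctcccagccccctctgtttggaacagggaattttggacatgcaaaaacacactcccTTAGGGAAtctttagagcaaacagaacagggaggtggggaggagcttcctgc
C7: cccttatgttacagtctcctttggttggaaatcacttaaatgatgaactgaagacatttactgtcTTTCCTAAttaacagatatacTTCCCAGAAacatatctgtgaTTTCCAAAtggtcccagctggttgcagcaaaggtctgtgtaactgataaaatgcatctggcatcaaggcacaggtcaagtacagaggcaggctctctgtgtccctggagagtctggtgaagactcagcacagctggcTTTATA
The motifs, searched on both strands, were TTNNGNAA for C/EBP factors, TTCNNNGAA for STAT factors, TATAAA for a TATA box, and the NF-kB site and the interferon-stimulated response element by their usual consensus. Of 32851 promoter windows of the same length, 36.8% held the C/EBP letters, 3.90% the NF-kB letters, 7.02% the STAT letters, 1.84% the interferon letters and 12.4% the TATA letters. The C3 window held C/EBP letters at 3 positions, 70, 58 and 45 bases before the start, the last on both strands, and 2.61% of all windows had at least 3 positions. The windows of C1ra, C1s1 and C7 held the C/EBP letters at 2 positions each. The share of all windows with at least 2 positions was not computed. That of C7 also held the STAT letters 164 bases before the start and, on the opposite strand, the TATA letters just before the start. The Cd55 window, on chromosome 1, held none of the motifs, and no window held the NF-kB or interferon letters. A match is a run of letters and not a shown binding site, and the absence of one says nothing about the factor. A window was found for 5 of the 9 genes; C2, C4b, Cfb and Serping1 were not searched.

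The lower C3 level was seen in each class by itself. Pi16 fibroblasts had 1615 CPM of C3 in HFD and 2133 CPM in NC, a ratio of 0.757 (0.723 to 0.793). Gas6 fibroblasts had 766 CPM in HFD and 1024 CPM in NC, a ratio of 0.748 (0.717 to 0.781). Asc1 fibroblasts had 330.1 CPM in HFD and 464 CPM in NC, a ratio of 0.712 (0.671 to 0.755). These 3 ratios lay close together, with overlapping intervals. Myofibroblasts had 58.6 CPM in HFD and 104 CPM in NC, a ratio of 0.565 (0.382 to 0.823). The myofibroblast value rests on few cells: in HFD, 5 of the 510 cells held 44.2% of the class's C3 counts. In the class labelled pericytes the values were 63.5 CPM in HFD and 168 CPM in NC, a ratio of 0.378 (0.306 to 0.468). That last value rests on few cells too: 2 of the 250 NC cells held 22.8% of the class's C3 counts, and 6 of the 596 HFD cells held 32.1%. Of the 9 genes, C3 alone had an interval below 1 in all 5 classes.

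C3 transcripts were spread over many cells. C3 was detected in 51.1% of pooled fibroblasts in HFD and 59.8% in NC, at median depths of 9541 counts in HFD and 7402 counts in NC, so the deeper library had the smaller share. For comparison, 8.24% of HFD and 13.2% of NC myofibroblasts, at median depths of 6617 counts in HFD and 4816 counts in NC, had a C3 count. After every cell was thinned to 3000 counts, the share in pooled fibroblasts was 41.4% (40.04% to 42.7%) in HFD and 52.7% (51.6% to 53.9%) in NC, with 86 HFD and 415 NC cells too shallow to thin. Cells with a C3 count held a mean of 13.3 counts in HFD and 12.8 counts in NC. The top 1% of cells held 13.4% of C3 counts in HFD and 13.2% in NC, so the level was not set by a handful of cells in either library. Among rare genes the mean count of a positive cell was 3.25 in HFD and 2.66 in NC. Whether this reflects counts per molecule or depth cannot be told apart here, and thinning removes only the difference in depth.

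Cfb (ENSMUSG00000090231), which encodes factor B, the partner of C3 in the alternative convertase, was measured at 45.8 CPM in HFD and 56.0 CPM in NC pooled fibroblasts. Its ratio was 0.818 (0.735 to 0.911). By class, Cfb was highest in Pi16 fibroblasts, with 124 CPM in HFD and 149.7 CPM in NC, and the level in Pi16 over that in Asc1 fibroblasts was 4.44 in HFD and 4.89 in NC. Gas6 fibroblasts had 44.7 CPM in HFD and 54.0 CPM in NC, and Asc1 fibroblasts had 27.8 CPM in HFD and 30.6 CPM in NC. Myofibroblasts were almost without it, since 0.392% of HFD and 0.300% of NC myofibroblasts had a Cfb count. That share was 9.76% of HFD and 11.8% of NC pooled fibroblasts. The ratio was 0.825 (0.693 to 0.980) in Pi16, 0.828 (0.689 to 0.993) in Gas6 and 0.908 (0.730 to 1.129) in Asc1 fibroblasts.

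C4b (ENSMUSG00000073418) and C2 (ENSMUSG00000024371) encode the components cleaved by C1s. C4b was measured at 512 CPM in HFD and 665 CPM in NC pooled fibroblasts, a ratio of 0.770 (0.746 to 0.795). In Gas6 fibroblasts it stood at 722 CPM in HFD and 921 CPM in NC, a ratio of 0.784 (0.750 to 0.820). Asc1 fibroblasts had 217 CPM in HFD and 268 CPM in NC, a ratio of 0.807 (0.749 to 0.870). In Pi16 fibroblasts, where C4b was highest, the diets lay closer, with 1095 CPM in HFD and 1163 CPM in NC, a ratio of 0.942 (0.888 to 0.999) whose interval overlaps neither that of Gas6 nor that of Asc1 fibroblasts. Unlike C3, C4b lay near its Asc1 level in the contractile classes: myofibroblasts had 179.9 CPM in HFD and 217 CPM in NC, and the class labelled pericytes had 181 CPM in HFD and 232 CPM in NC. The near-identical C4a, a transcribed pseudogene in the RefSeq annotation, had 15.6 CPM in HFD and 16.4 CPM in NC, and how reads shared by the copies were assigned is not given in the sources used here.

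C2 had the lowest pooled ratio of the members, 0.666 (0.598 to 0.743), with 41.6 CPM in HFD and 62.5 CPM in NC. It was the 1 member at least 1.5-fold lower in HFD, against 4.75% of all measured genes, and it lay just past that limit. The call was lost, with a lower HFD level still, in 6 of 12 alternative computations. Gas6 fibroblasts had 61.5 CPM in HFD and 90.2 CPM in NC, a ratio of 0.682 (0.586 to 0.792), and Asc1 fibroblasts had 23.3 CPM in HFD and 33.7 CPM in NC, a ratio of 0.690 (0.550 to 0.864). In Pi16 fibroblasts the values were 67.6 CPM in HFD and 77.9 CPM in NC, and the interval of the ratio, 0.868 (0.683 to 1.100), included 1. C2 was detected in more of the Gas6 fibroblasts, with 24.2% in HFD and 28.97% in NC, while Pi16 fibroblasts had 14.8% in HFD and 17.3% in NC. Gas6 fibroblasts were the deeper class, with median depths of 16128 counts in HFD and 12379 counts in NC, while Pi16 fibroblasts had 10302 counts in HFD and 7487 counts in NC. At 3000 counts per cell, Gas6 fibroblasts had 10.6% (8.83% to 12.6%) in HFD and 15.6% (14.02% to 17.2%) in NC, and Pi16 fibroblasts had 8.75% (6.87% to 10.9%) in HFD and 11.3% (9.54% to 13.3%) in NC, so the classes overlapped in HFD. Unthinned, C2 was detected in 2.16% of myofibroblasts in HFD and 2.70% in NC. C2 and Cfb are neighbours in the genome.

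C1ra (ENSMUSG00000055172) and C1s1 (ENSMUSG00000038521) encode the mouse C1r and C1s proteases of the first component and are neighbours. C1ra was measured at 196 CPM in HFD and 229.5 CPM in NC pooled fibroblasts, a ratio of 0.856 (0.813 to 0.902). C1s1 was measured at 279.7 CPM in HFD and 327 CPM in NC, a ratio of 0.854 (0.818 to 0.892). The pooled ratios of these partners were nearly the same, and 20.6% of measured genes had a ratio as low as that of C1ra, 20.3% as low as that of C1s1.

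By class the partners differed. C1ra had 217 CPM in HFD and 273 CPM in NC Gas6 fibroblasts, a ratio of 0.794 (0.732 to 0.861). Asc1 fibroblasts had 142 CPM of C1ra in HFD and 140.02 CPM in NC, a ratio of 1.017 (0.923 to 1.121), and Pi16 fibroblasts had 386 CPM in HFD and 409 CPM in NC, a ratio of 0.943 (0.854 to 1.042). C1ra was thus lower in HFD beyond counting error in Gas6 fibroblasts, with an interval that does not overlap that of Asc1 fibroblasts. C1s1 had 183 CPM in HFD and 213 CPM in NC Asc1 fibroblasts, 348 CPM in HFD and 382 CPM in NC Gas6 fibroblasts, and 523 CPM in HFD and 585 CPM in NC Pi16 fibroblasts. Its ratios of 0.860 (0.792 to 0.934), 0.911 (0.853 to 0.972) and 0.893 (0.821 to 0.972) were alike in these classes. C1rb, a close copy of C1ra beside it, had 70.4 CPM in HFD and 79.3 CPM in NC pooled fibroblasts, a ratio of 0.888 (0.813 to 0.969). With C1rb added to C1ra the log2 ratio was −0.21, against −0.22 for C1ra alone.

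C7 (ENSMUSG00000079105), which joins the forming pore and anchors it in the membrane, had a pattern of its own over the classes. It was highest in Gas6 fibroblasts, with 476 CPM in HFD and 478 CPM in NC, then in Asc1 fibroblasts, with 414 CPM in HFD and 435 CPM in NC, and lower in Pi16 fibroblasts, with 289 CPM in HFD and 331 CPM in NC. The level in Pi16 over that in Asc1 fibroblasts was 0.697 in HFD and 0.762 in NC, below 1 for C7 and for no other member. C7 was nearly missing from myofibroblasts, at 8.73 CPM in HFD and 13.7 CPM in NC. Pooled fibroblasts had 391.9 CPM in HFD and 416 CPM in NC, a ratio of 0.941 (0.906 to 0.977). The interval of the ratio lay below 1 in Pi16 fibroblasts, 0.872 (0.778 to 0.976), and included 1 in Gas6 fibroblasts, 0.996 (0.941 to 1.054), and Asc1 fibroblasts, 0.952 (0.901 to 1.007).

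C6, which acts just before C7 in the pore and neighbours it in the genome, stood the other way. It had 14.7 CPM in HFD and 8.41 CPM in NC pooled fibroblasts, a ratio of 1.751 (1.393 to 2.205). Asc1 fibroblasts had 22.5 CPM of C6 in HFD and 12.6 CPM in NC, a ratio of 1.786 (1.338 to 2.395), and Gas6 fibroblasts had 12.6 CPM in HFD and 8.06 CPM in NC, a ratio of 1.569 (1.049 to 2.342). Pi16 fibroblasts were near 1 CPM of C6, with 10 counts in HFD and 9 counts in NC.

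Serping1 (ENSMUSG00000023224) encodes C1 inhibitor, the serpin that inactivates C1r and C1s. It was detected in most fibroblasts, in 86.3% of pooled cells in HFD and 87.2% in NC, while myofibroblasts gave 44.5% in HFD and 44.1% in NC. Pooled fibroblasts had 1349 CPM in HFD and 1447 CPM in NC, a ratio of 0.932 (0.914 to 0.951). Pi16 fibroblasts had 1921 CPM in HFD and 2078 CPM in NC, a ratio of 0.925 (0.885 to 0.966), and Gas6 fibroblasts had 1429 CPM in HFD and 1527 CPM in NC, a ratio of 0.936 (0.906 to 0.967). In Asc1 fibroblasts, with 1244 CPM in HFD and 1265 CPM in NC, the interval of the ratio, 0.983 (0.952 to 1.016), included 1. The Serping1 level was flatter over the 3 large classes than that of C3 or C4b, with Pi16 over Asc1 at 1.54 in HFD and 1.64 in NC, against 4.89 in HFD and 4.60 in NC for C3 and 5.05 in HFD and 4.33 in NC for C4b.

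Cd55 (ENSMUSG00000026399) encodes decay accelerating factor, a surface protein that takes convertases apart, and was the member without a lower HFD level. Pooled fibroblasts had 29.0 CPM in HFD and 28.7 CPM in NC, a ratio of 1.009 (0.875 to 1.161). Pi16 fibroblasts had 55.6 CPM in HFD and 55.5 CPM in NC, Gas6 fibroblasts had 38.3 CPM in HFD and 34.3 CPM in NC, and Asc1 fibroblasts had 16.8 CPM in HFD and 15.5 CPM in NC. All 3 intervals included 1, the widest from 0.807 to 1.455, so a moderate difference either way would not have been seen. A Cd55 count was present in 6.79% of HFD and 7.08% of NC pooled fibroblasts, and in 0.784% of HFD and 0.900% of NC myofibroblasts.

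**Figure D2:**
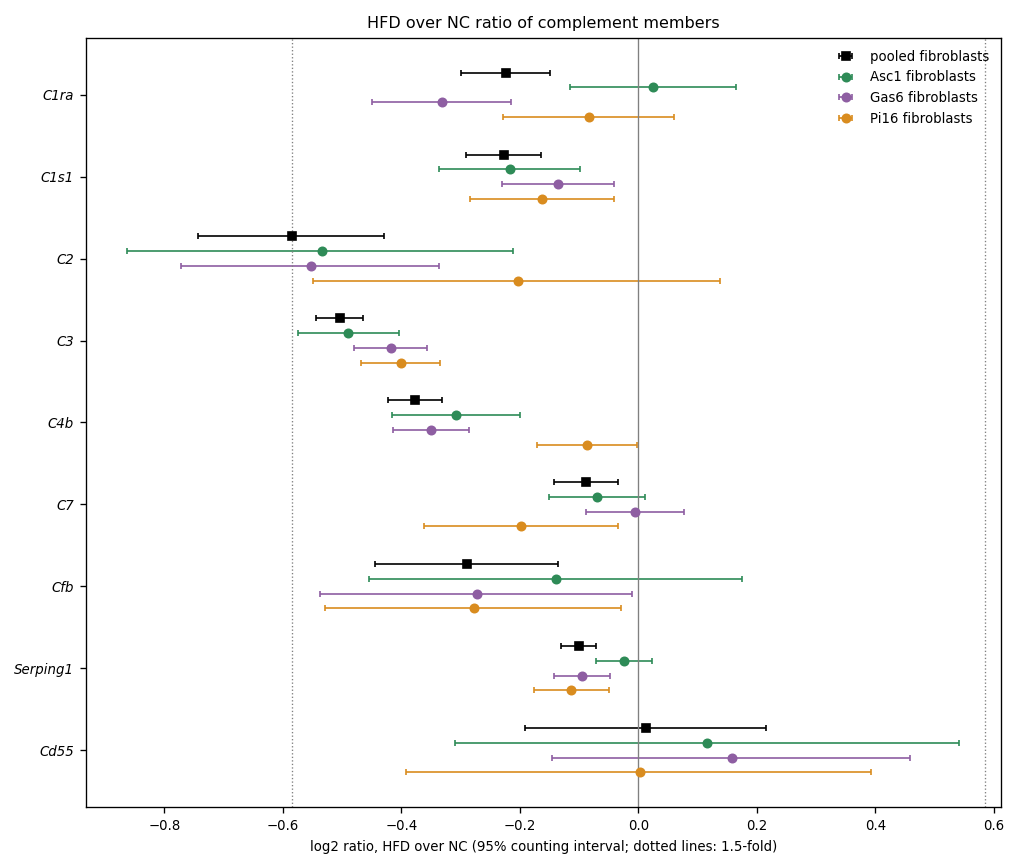
Log2 of the HFD over NC ratio (horizontal axis, 0 means equal levels) is drawn for each gene in pooled fibroblasts (black squares) and in Asc1, Gas6 and Pi16 fibroblasts (coloured circles), with 95% counting intervals and dotted lines at 1.5-fold. All 4 points of C3 lie left of 0 with short intervals, the points of Serping1 lie near 0, as do those of C7 apart from the Pi16 point at −0.20, and those of Cd55 lie at or right of it.

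Taken over the 9 genes, the median log2 ratio in pooled fibroblasts was −0.23, against 0.02 for all measured genes. The intervals of 8 of the 9 genes lay below 1, against 16.7% of all measured genes, though well-counted genes have short intervals and pass this more easily. A ratio below 1 of any size was found for 8 of 9 members and 46.3% of all genes. No member was at least 1.5-fold higher, against 5.45% of all genes.

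Within classes the member medians were −0.14 in Asc1, −0.27 in Gas6 and −0.16 in Pi16 fibroblasts on the log2 scale, against −0.0044, 0.02 and 0.01 for all genes measured in each class. The interval lay below 1 for 4 of 9 members in Asc1 fibroblasts, against 14.1% of genes, for 7 of 9 in Gas6 fibroblasts, against 13.8%, and for 6 of 9 in Pi16 fibroblasts, against 10.6%. The C4b interval in Pi16 fibroblasts ended at 0.999, close to 1. No member was 1.5-fold lower in these classes, where 5.46%, 5.91% and 5.89% of genes were. Myofibroblasts had 5 members measured, of which C3 was 1.5-fold lower, against 7.97% of genes, and C3 and Serping1 had intervals below 1, against 9.74%. The class labelled pericytes had 6 members measured, of which C3 was 1.5-fold lower, against 6.79% of genes, and C1s1, C3, C4b and Serping1 had intervals below 1, against 10.5%. With that class added to the pool, C2 and C3 were 1.5-fold lower, against 5.39% of genes, and 8 of 9 members had intervals below 1, against 17.9%.

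The mix of classes differed between the libraries and moves a pooled value. Asc1 fibroblasts gave 45.7% of HFD and 38.9% of NC fibroblast counts, and Gas6 fibroblasts gave 33.5% of HFD and 41.5% of NC counts. Had each of the 4 fibroblast classes been given equal weight, the log2 ratio would have been −0.43 for C3, against −0.50 as pooled, −0.43 for C2, against −0.59, and −0.21 for C4b, against −0.38. Equal weights would also raise Pi16 fibroblasts from 14.6% of HFD and 14.4% of NC counts, and myofibroblasts from 6.15% and 5.13%. The shift is therefore not that of the difference in mix alone. The summed level of the adventitial markers was also lower in HFD within most classes. Its ratio was 0.722 in Asc1, 0.692 in Gas6 and 0.928 in Pi16 fibroblasts. It was 0.545 in the class labelled pericytes and 1.08 in myofibroblasts. Single markers went both ways in Pi16 fibroblasts. Pi16 had 717 CPM in HFD and 625 CPM in NC, and Cd34 had 403 CPM in HFD and 365 CPM in NC. Dcn had 6434 CPM in HFD and 6755 CPM in NC, and Clec3b had 1397 CPM in HFD and 1787 CPM in NC. The member median on the log2 scale was −0.14 in Asc1, −0.27 in Gas6 and −0.16 in Pi16 fibroblasts. The part of the adventitial markers in the members' ratios was not tested. The macrophage list, of which 8 of 10 genes are in the tables, summed to 37.5 CPM in HFD and 51.9 CPM in NC pooled fibroblasts, with Ptprc at 0 in both libraries. Its members went both ways, with Plac8 at 18.6 CPM in HFD and 35.9 CPM in NC and Lyz2 at 9.88 CPM in HFD and 4.38 CPM in NC. Other immune lists were lower in HFD at low levels: the dendritic cell list summed to 5.90 CPM in HFD and 17.9 CPM in NC, the neutrophil list to 0.813 CPM in HFD and 3.53 CPM in NC, and the T and B cell list to 0.208 CPM in HFD and 3.22 CPM in NC. Their part in the members' ratios was not tested.

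**Figure D3:**
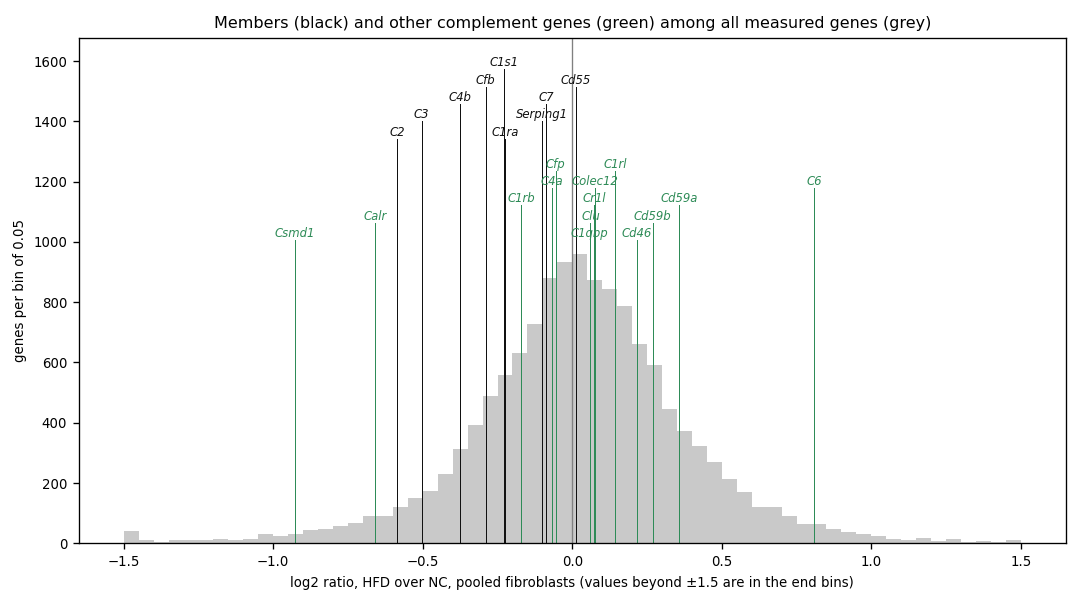
Grey bars count all 13406 measured genes by their log2 HFD over NC ratio in pooled fibroblasts (horizontal axis, bins of 0.05), and thin lines mark the 9 members in black and 14 of the 15 other complement genes measured in green. The black lines run from −0.59 for C2 to 0.01 for Cd55, left of most grey genes, while the green lines lie on both sides of 0, from Csmd1 at −0.93 to C6 at 0.81.

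Many Gas6 and Pi16 fibroblasts had counts of several members. Whether members met in a cell more often than their single shares would give was not tested. After thinning to 3000 counts, HFD Gas6 fibroblasts had a mean of 3.82 of the 9 genes per cell and NC Gas6 fibroblasts 4.13, and Pi16 fibroblasts had 3.83 in HFD and 4.10 in NC. Asc1 fibroblasts had fewer, 2.27 in HFD and 2.48 in NC, and myofibroblasts had 0.762 in HFD and 0.89 in NC. At least 5 members were found in 31.4% of HFD and 39.5% of NC Gas6 fibroblasts, in 35.1% of HFD and 42.6% of NC Pi16 fibroblasts, and in 5.26% of HFD and 7.99% of NC Asc1 fibroblasts. None was found in 43.5% of HFD and 35.5% of NC myofibroblasts. As with the thinned shares of C3, counts per molecule may differ between the libraries and touch these shares.

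**Figure D4:**
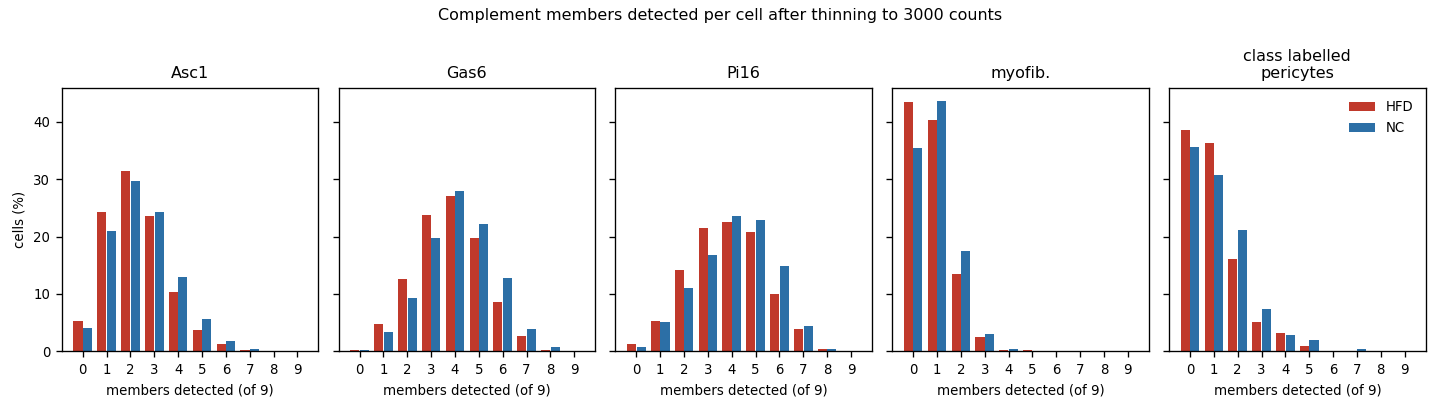
The percent of cells (vertical axis) is plotted by how many of the 9 genes were detected in a cell thinned to 3000 counts (horizontal axis), in a panel for each class, with HFD bars left of NC bars. Gas6 and Pi16 cells centre on 4 genes and Asc1 cells on 2, while myofibroblasts pile up at 0 and 1.

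A finer column of the deposited annotation splits a subset labelled SNAT2 from the Asc1 class, with 245 HFD and 359 NC cells. Its complement profile differed from the rest of the Asc1 class. The subset had 706 CPM of C3 in HFD and 987 CPM in NC, while the rest had 314 CPM in HFD and 438 CPM in NC. C4b stood at 733 CPM in HFD and 738 CPM in NC in the subset, and at 195 CPM in HFD and 246 CPM in NC in the rest. C1s1 was also higher in the subset, with 351 CPM in HFD and 395 CPM in NC, while the rest had 176 CPM in HFD and 204 CPM in NC. Serping1 went the other way, with 891 CPM in HFD and 1018 CPM in NC in the subset, while the rest had 1259 CPM in HFD and 1277 CPM in NC. The share of cells with a count was taken without thinning. In HFD it was 38.8% in the subset and 41.2% in the rest for C3. For C1s1 it was 34.3% and 35.4%, for C4b 31.8% and 22.7%, and for Serping1 64.5% and 88.5%. For C1ra in HFD, 213 counts in 245 subset cells gave 196 CPM, while 3547 counts in 2847 cells of the rest gave 140 CPM. The subset thus had fewer counts per cell in HFD. Since the shares were not thinned to a common depth, a lower share is not read as a trait of the subset.

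Genes whose levels ran most like each member were sought over the 10 profiles of library and class, among 3255 genes with enough counts, by Pearson's r of log2(CPM + 1). The profiles share libraries and depth, so r is a description. The genes most like C3 were Psap at 0.988, Bst2 at 0.985 and Nbl1 at 0.980. Bst2 encodes tetherin, an interferon-induced membrane protein. C1s1 and Cfb were each other's nearest gene, at 0.981, and both had the interferon-inducible Ifi211 next, at 0.974 for C1s1 and 0.977 for Cfb. C1ra had its copy C1rb at 0.997, followed by Psap at 0.991. C2 ran with the gelatinase gene Mmp2 at 0.984 and the cytokine gene Il6 at 0.982, and C4b with the procollagen protease gene Adamts2 at 0.981 and the collagen gene Col6a2 at 0.968. C7 ran with Chrdl1, a BMP antagonist, at 0.991, Serping1 with Rnase4 at 0.995 and Gsn at 0.994, and Cd55 with Selenop at 0.991.

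Of 46 other complement genes listed, 15 were measured in pooled fibroblasts, 14 fell under the minimum and 17 were not analysed here. Their median log2 ratio was 0.06. Of the 15, 2 were at least 1.5-fold lower in HFD, Csmd1 and Calr, against 4.75% of all measured genes, and 1 was at least 1.5-fold higher, C6, against 5.45%. Csmd1, a membrane regulator, had 4.20 CPM in HFD and 7.996 CPM in NC, a ratio of 0.526 (0.372 to 0.733). Calr, a chaperone of the endoplasmic reticulum that can bind C1q, had 217 CPM in HFD and 342 CPM in NC, a ratio of 0.633 (0.604 to 0.664).

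Among inhibitors, Cd59a and Cd59b encode surface proteins that stop pore assembly. Cd59a had 42.9 CPM in HFD and 33.45 CPM in NC, a ratio of 1.281 (1.134 to 1.448), and Cd59b had 29.2 CPM in HFD and 24.2 CPM in NC, a ratio of 1.205 (1.040 to 1.395). These copies can share reads. The ratios of 2 further regulators, Cr1l at 1.052 (0.933 to 1.185) and Cd46 at 1.162 (0.662 to 2.023), had intervals that included 1. Clu, which encodes the pore inhibitor clusterin, had 28.4 CPM in HFD and 27.2 CPM in NC pooled fibroblasts. It was highest in the class labelled pericytes, with 423 CPM in HFD and 426 CPM in NC, and in myofibroblasts, with 284 CPM in HFD and 278 CPM in NC, the classes where C3 was lowest. C1qa, a subunit of the recognition protein made mainly by macrophages, had 17 counts in HFD and 15 counts in NC pooled fibroblasts.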

How the data were processed

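The deposited tables, per the labels from a 10x Genomics 3′ v3 kit, hold log2 of CPM plus 1 per cell for 21014 genes, a unit found from the values. A total for each cell is deposited too, treated as an expected count because 7.24% of HFD totals and 5.59% of NC totals were not whole, and a count of detected genes. Mitochondrial and ribosomal shares are in percent, per the file headers. Per the submitters' processing notes, STAR and mm39 were used; versions and molecule counting are not given in the sources used here. Symbols were matched for 96.03% of identifiers.

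The log2 scale was undone and each value multiplied by its cell's total; 98.8% of HFD and 98.96% of NC values were whole within 0.01, and all were rounded. Counts spread wider than single molecules would, so intervals (exact conditional Poisson for ratios, Clopper-Pearson for shares) used counts divided by 4.85 in HFD and 3.98 in NC for ratios and levels. They cover counting error only. The factors were medians over rare genes, seen in 0.1% to 1% of the cells used, and were applied to every gene. Abundant members such as C3 may spread wider over cells, and their intervals leave this out and may be too short. In HFD pooled fibroblasts, cells with a count held a mean of 13.3 counts of C3 and 13.5 of C4b. Among rare genes, which set the factor, that mean was 3.25 in HFD. Interval limits near 1, such as 0.999 for C4b in Pi16 fibroblasts, are therefore weak. A ratio of 1.5 either way counted as different by size. No doublet caller was run. Python 3.11.15, numpy 2.4.6, scipy 1.17.1, pandas 2.3.3, R 4.3.3 and edgeR 4.0.16 (TMM factors only) were used. The calculation was run on simulated counts drawn with the same factors. This checks the code and not whether the factors hold for real counts.

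Classes came from the deposited annotation. Members, lists and alternatives (cell filters, scaling, class weights, depth, copies) were chosen with earlier results of these data known. All members were named. Listed complement genes at 50 effective counts and the 3 genes most like each member could be named, and not all of them were. C1qa fell under that minimum and was named for its counts only. 1 gene of the list is not reported here.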

Additional observations from a re-analysis of the deposited data

Results flagged for a closer look

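Colec12, which encodes a scavenger receptor of the collectin family, had HFD over NC ratios on opposite sides of 1 in 2 classes. Pi16 fibroblasts had 351 CPM in HFD and 243 CPM in NC, a ratio of 1.45 (1.29 to 1.62). The class labelled pericytes had 98.5 CPM in HFD and 138 CPM in NC, a ratio of 0.715 (0.584 to 0.879). The difference between the classes was not tested, since there was 1 library per diet.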

How the results depend on the processing

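Over 12 alternatives for each of the 9 members, 103 of 108 log2 ratios were below 0, and the other 5 belonged to Cd55, which ranged from −0.18 to 0.08. The lowest and highest values were −0.69 and −0.40 for C3, −0.77 and −0.43 for C2 and −0.50 and −0.21 for C4b. The member median of −0.23 moved to −0.16 with fibroblast classes weighted equally and to −0.36 with all 5 classes pooled. The count of members at least 1.5-fold lower was 1. It was 0 with all deposited cells, with totals without mitochondrial and ribosomal protein genes, with the mean of CPM per cell, with classes weighted equally, without the Asc1 class, with cells thinned to 3000 counts and at a 2-fold limit. It was 2 with all 5 classes pooled and 3 at a looser fold limit. The count of members higher was 0 under every alternative run, and the count of members with the same highest class in both libraries was 8 of 9 under each of 6 alternatives. No paired analysis was possible because each diet has 1 library, and leaving out a replicate was not possible for the same reason. Depth limits Cd55, C2 and Cfb most, and myofibroblasts held too few counts for C2, C7, Cfb and Cd55.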
